A study of Mus musculus with 18 samples.

Results

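The receptor-free control cultures of both experiments of the study were compared: 3 libraries collected 3 days after ligand exposure (mCherry 1 to 3) against 3 libraries collected at 90 min (EGFP 1 to 3). They are 6 of the 18 libraries in all. They were picked by their labels alone, by joining the count tables of both experiments on the gene identifier. All 22078 identifiers were present in both tables. All libraries come from cultured mouse cortical astrocytes grown with serum, transfected with a plasmid by a lipid reagent, and given 8 µM deschloroclozapine (DCZ, the ligand of designer receptors) for 90 min at 7 days after transfection. The 3-day control cells carried mCherry. They received medium without ligand after the 90 min of DCZ, and their RNA was taken 3 days later, 10 days after transfection. The 90-min control cells carried EGFP, and their RNA was taken directly after the 90 min of DCZ. The remaining 12 libraries carried a designer receptor: hM3Dq at 3 days (3 libraries), and hM3Dq, hM4Di or rM3Ds at 90 min (3 libraries each). The labels do not say whether libraries of a group came from separate cultures or animals, so each p-value measures the spread between these libraries only. Time, plasmid, medium change and experiment all differ together between both control groups and cannot be told apart.

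Astrocytes are the glial cells that take up glutamate, buffer potassium and water, and secrete matrix and signalling proteins. In serum-grown monolayers they divide, lay down collagens and carry part of the programme of reactive glia. Their RNA levels also move quickly with medium changes, serum, stretch and inflammatory signals, through immediate-early genes, serum response factor, NF-kB and interferon signalling. The gene lists used here follow these programmes. A receptor-free control carries none of the designer receptors through which DCZ is meant to act, so the 2 control groups show the baseline on which each receptor comparison rests.

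Each library held 16.6 to 18.5 M estimated counts at 3 days and 17.2 to 21.5 M at 90 min. In the 3-day libraries 7030 to 7159 identifiers were at 0, against 5245 to 5474 in the 90-min libraries. Values that were not whole numbers made up 29.0% and 28.6% of the values in mCherry 1 and mCherry 2, 40.2% in mCherry 3 and 55.3% to 57.8% at 90 min. Why these shares differ was not tested. One library of each group stood apart. The chi-square per degree of freedom between libraries was 4.71 for mCherry 1 and 2 and 5.97 for EGFP 2 and 3, but 64.1 to 64.5 for mCherry 3 against mCherry 1 or 2 and 94.1 to 97.2 for EGFP 1 against EGFP 2 or 3. No pair agreed within sampling noise. The first principal component of the 6 control libraries held 62.2% of the variance and separated the times. Over all 18 libraries it held 52.9% and placed each of the 6 3-day libraries on one side and each of the 12 90-min libraries on the other.

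**Figure D1:**
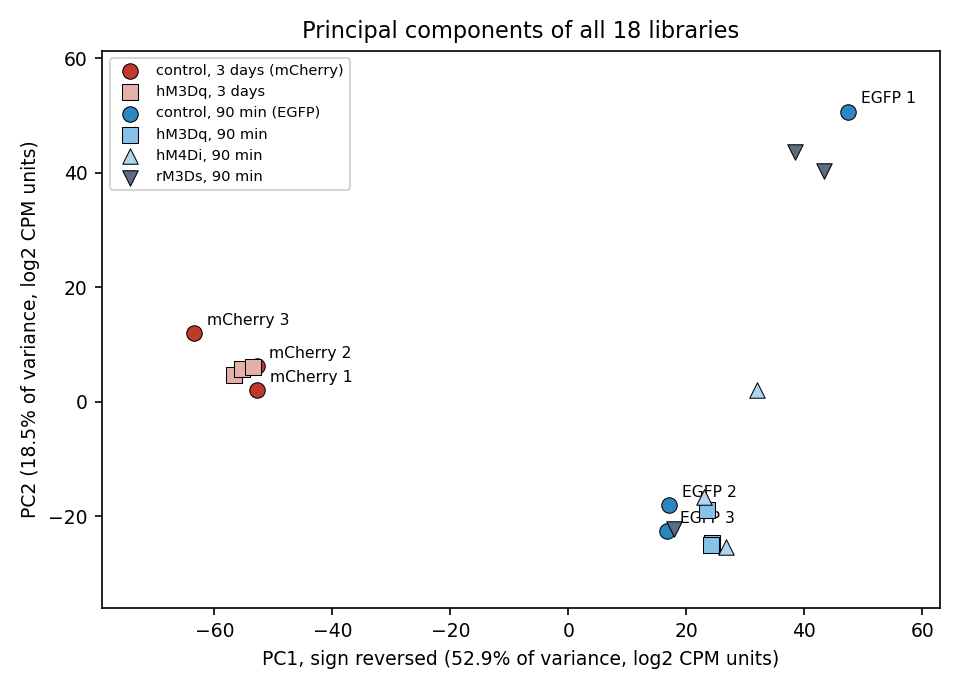
Principal components 1 (x, drawn with its sign reversed) and 2 (y) of log2 CPM in all 18 libraries, each point 1 library, coloured by group. The 3-day libraries, control and hM3Dq, lie together at the left, the 90-min libraries lie at the right, and EGFP 1 lies apart from EGFP 2 and EGFP 3 along component 2, near 2 of the 3 rM3Ds libraries.

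Levels are given as CPM (counts scaled to a fixed library size), scaled by the trimmed mean of M-values, and serve to compare libraries for 1 gene, not genes with each other. Changes are log2 fold changes of 3 days over 90 min with their standard error (SE), and a gene was called where the Benjamini-Hochberg adjusted p of edgeR's quasi-likelihood test over all genes tested was under 0.05. Of 13061 genes tested, 2410 were called (18.5%): 1042 were higher at 3 days (7.98%) and 1368 were lower (10.5%). The fold was at least 2 for 334 of the higher and 706 of the lower genes. Called genes numbered 626 without mCherry 1, 631 without mCherry 2, 835 without EGFP 2 and 1119 without EGFP 3, against 2087 without mCherry 3 and 2869 without EGFP 1. With EGFP 1 and mCherry 3 both left out, 6833 of 13163 genes were called (51.9%), 3367 higher (25.6%) and 3466 lower (26.3%). Of the 2405 called genes tested in that fit, 2398 were called in the same direction there. The libraries left out were those that stood apart, so the spread between those kept is small by that choice. Counts and adjusted p of that fit, here and below, are therefore no separate support for the calls. Of the 2410 genes, 476 were called in all 6 fits with 1 library left out. The counts of list members below are to be read beside the counts over all genes in the same fit. Without EGFP 1, 1174 genes were higher and 1695 lower, of 13259 tested. Without mCherry 3, 990 were higher and 1097 lower, of 13314 tested.

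The receptor-carrying cultures differed between the experiments too. In hM3Dq cultures, whose libraries are separate from the controls, 7834 of 13023 genes were called between 3 days and 90 min (60.2%), 3936 higher (30.2%) and 3898 lower (29.9%). Of the 2368 control calls tested in both contrasts, 2260 were called in the same direction in hM3Dq cultures, which is 95.4% of the control calls and 29.1% of the 7755 hM3Dq calls. Another 4 genes were called in opposite directions. For 2039 of the 2410 called genes (84.6%), all 6 3-day libraries lay on one side of all 12 90-min libraries. The control groups did not overlap for any of the 2410, so part of this separation came with the calling. Among all genes tested the control groups did not overlap for 6148 (47.1%), and 3487 of those were apart in all 18 libraries (26.7% of all genes tested).

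**Figure D2:**
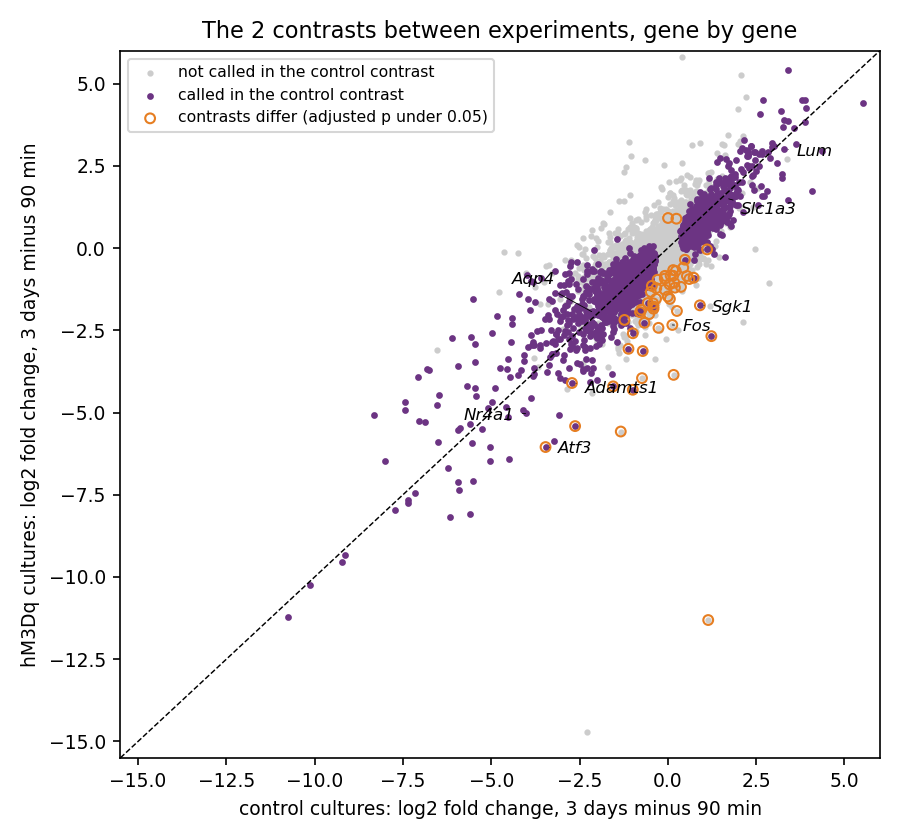
Log2 fold change of 3 days minus 90 min in control cultures (x) and in hM3Dq cultures (y), each point 1 gene tested in both contrasts, with the dashed line where both are equal. Of the control calls, 99.2% have the same sign in both contrasts, and genes whose contrasts differ (circled) lie mostly under it, such as Fos (-2.34 in hM3Dq and 0.13 in control cultures). Folds of genes near 0 in 1 group depend on the prior count.

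All 8 astrocyte markers were detected and tested, but they did not move together. Of these, 1 was higher at 3 days, 2 were lower and their summed level was 512.6 to 559.8 CPM at 3 days and 328.5 to 645.9 CPM at 90 min. Slc1a3, the glutamate transporter GLAST, had 146, 146 and 167 CPM in mCherry 1 to 3, against 32.7, 58.5 and 58.2 CPM in EGFP 1 to 3. All 3-day libraries lay above all 90-min libraries, and the change was 1.61 ± 0.23, adjusted p = 0.00764. Sox9, a transcription factor of astrocytes and their precursors, had 290.0, 247 and 251 CPM in mCherry 1 to 3, against 109.5, 303 and 314 CPM in EGFP 1 to 3. Sox9 was low in EGFP 1 alone and its change was not called (0.11 ± 0.36, adjusted p = 0.845); without EGFP 1 and mCherry 3 it was -0.20 (adjusted p = 0.0297), of the opposite sign. Gfap, the intermediate filament by which astrocytes are often recognised, had 2.59, 1.78 and 1.72 CPM in mCherry 1 to 3, against 23.2, 2 and 2.36 CPM in EGFP 1 to 3. Apart from EGFP 1, Gfap was near 2 CPM in both groups, and its change was not called (-2.19 ± 0.95, adjusted p = 0.143). S100b, a calcium-binding protein, was at 1.29 ± 0.195 CPM at 3 days and 4.19 ± 3.6 CPM at 90 min (SD, n = 3 each; -1.71 ± 0.60, adjusted p = 0.0857), with EGFP 1 highest. Without EGFP 1 the change of S100b was -0.71.

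Among markers of other lineages, those of microglia and endothelium were nearly all under 1 CPM. Most of those of the oligodendrocyte lineage and of mesenchymal cells reached 1 CPM in at least 1 library. Of 8 microglial markers, 7 were under 1 CPM in all 6 control libraries, P2ry12 was at 0 in each, and the list summed to 4.36 to 7.45 CPM at 3 days and 2.65 to 10.1 CPM at 90 min, most of it Tmem119. All 4 endothelial markers were under 1 CPM. Of 6 markers of the oligodendrocyte lineage, Sox10 and Mog were under 1 CPM, and the list summed to 26.2 to 29.8 CPM at 3 days and 8.71 to 24.5 CPM at 90 min. Of 6 fibroblast and mural markers, only Rgs5 was under 1 CPM, and the list summed to 1700 to 1915 CPM at 3 days and 1755 to 2431 CPM at 90 min. The collagen chain gene Col1a1 was among them, with 1090, 1097 and 815 CPM in mCherry 1 to 3, against 1134, 1468 and 1208 CPM in EGFP 1 to 3; its 3-day libraries all lay under its 90-min libraries, but the change was not called (-0.35 ± 0.18, adjusted p = 0.199). Of 24 genes of a longer fibroblast and mural list 16 were tested, 3 were higher, 2 were lower and 11 were not called (7 higher and 3 lower without EGFP 1). Over all genes tested 7.98% were higher and 10.5% were lower. Anpep, a membrane aminopeptidase, was at 25.8 ± 2.83 CPM at 3 days and 4.03 ± 0.999 CPM at 90 min (2.67 ± 0.22, adjusted p = 0.00219), Lum, the collagen-binding proteoglycan lumican, changed by 3.29 ± 0.51 (adjusted p = 0.01; 3.89 without EGFP 3), and Notch3, a receptor of mural cells, by -1.60 ± 0.27 (adjusted p = 0.0126; 0.0517 without mCherry 2). Whether a change in the share of cells of another type takes part in any result below was not tested. In such bulk RNA fewer cells of a type and less RNA per cell cannot be told apart.

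Some neuronal and ciliated-cell markers were lower at 3 days. Of 20 neuronal markers, 6 were tested, 4 were lower and 2 were not called, both with a positive change. Over all genes tested 10.5% were lower. Without EGFP 1, 3 were lower and 1 was higher, and without mCherry 3, 2 were lower. The sums over this list overlapped, at 138 to 178 CPM at 3 days and 143 to 221 CPM at 90 min. The 5 defining neuronal markers summed to 0.264 to 0.344 CPM at 3 days and 3.86 to 49.1 CPM at 90 min. Rbfox3, Snap25 and Syt1 among them were under 1 CPM in all 6 libraries, and most of the sum at 90 min was Stmn2. Elavl3, an RNA-binding protein of neurons, was at 0.0367 ± 0.0319 CPM at 3 days and 1.45 ± 0.272 CPM at 90 min (-5.04 ± 0.58, adjusted p = 0.00468), and the tubulin gene Tubb3 was at 0.112 ± 0.0509 CPM at 3 days and 1.49 ± 0.407 CPM at 90 min (-3.66 ± 0.47, adjusted p = 0.0063). Stmn2, a tubulin regulator of growing neurites, had 0.106, 0.119 and 0.0574 CPM in mCherry 1 to 3, against 46.7, 3.03 and 2.25 CPM in EGFP 1 to 3. Its level in EGFP 1 was far above that in EGFP 2 and EGFP 3, and the change was -7.44 ± 1.64, adjusted p = 0.026 with all libraries and -4.71 without EGFP 1. Its call was lost without any 1 of the 3-day libraries (adjusted p at most 0.0979). Of 13 ependymal and choroid markers, 4 were tested and 3 were lower (2 without mCherry 3). Foxj1, the transcription factor of motile cilia, had 64.1, 53.6 and 37.8 CPM in mCherry 1 to 3, against 102, 236 and 209 CPM in EGFP 1 to 3, with no overlap between groups (-1.82 ± 0.34, adjusted p = 0.0169; adjusted p at most 0.0659 with 1 library left out, lost without mCherry 1 or mCherry 2). Rsph1, a cilium protein, changed by -1.50 ± 0.24 (adjusted p = 0.0108; 0.0506 without mCherry 1), and Cfap126, another, by -1.93 ± 0.46 (adjusted p = 0.0307), which was called in 2 of the 6 fits with 1 library left out, those without EGFP 1 or mCherry 2.

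Homeostatic astrocyte genes moved apart from each other. Of 30 genes of this list, 27 were tested, 3 were higher at 3 days, 8 were lower (13 without EGFP 1) and 16 were not called. Their median log2 fold change was -0.31 against -0.02 over all genes tested, of which 7.98% were higher and 10.5% were lower. Without EGFP 1 and mCherry 3, 8 genes of the list were higher and 14 were lower, against 25.6% and 26.3% of all genes. Aqp4, the water channel, had 16.6, 17.9 and 26.5 CPM in mCherry 1 to 3, against 55, 92 and 104 CPM in EGFP 1 to 3. Its 3-day libraries all lay under its 90-min libraries (-2.05 ± 0.28, adjusted p = 0.00704). Aldh1l1, a folate enzyme used as an astrocyte marker, had 20.2, 22.1 and 17.3 CPM in mCherry 1 to 3, against 47.9, 69.2 and 71.1 CPM in EGFP 1 to 3 (-1.67 ± 0.19, adjusted p = 0.00468). Mlc1, a membrane protein of astrocyte junctions, had 7.29, 5.99 and 5.97 CPM in mCherry 1 to 3, against 46, 29.7 and 34.3 CPM in EGFP 1 to 3 (-2.52 ± 0.21, adjusted p = 0.00229). Aqp4, Aldh1l1 and Mlc1 thus fell in the same libraries in which Slc1a3 rose, and each was called in all 6 fits with 1 library left out. In hM3Dq cultures the same genes changed by -1.99 (Aqp4), -1.62 (Aldh1l1), -2.01 (Mlc1) and 1.53 (Slc1a3). Slc4a4, a bicarbonate transporter chosen after its values were seen, was higher at 3 days, at 311 ± 63.4 CPM at 3 days and 163 ± 7.84 CPM at 90 min (0.92 ± 0.16, adjusted p = 0.0131). Slc1a2, the glutamate transporter GLT-1, had 39.2, 41.7 and 53.7 CPM in mCherry 1 to 3, against 13.3, 65.5 and 73.4 CPM in EGFP 1 to 3. EGFP 1 lay under the 3-day libraries and EGFP 2 and EGFP 3 above them, and the change was not called (-0.19 ± 0.54, adjusted p = 0.82), while without EGFP 1 it was -0.64 (adjusted p = 0.0295).

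Progenitor genes were called in a share near the 18.5% of all genes. Of 22 genes of this list 16 were tested, 1 was higher and 2 were lower. With EGFP 1 and mCherry 3 left out the counts were 3 and 6, while 25.6% of all genes were higher and 26.3% lower. Egfr, the receptor of epidermal growth factor that marks dividing progenitors and activated astrocytes, had 48.2, 43.7 and 59.7 CPM in mCherry 1 to 3, against 218, 174 and 163 CPM in EGFP 1 to 3, with no overlap (-1.88 ± 0.17, adjusted p = 0.00236). Prom1, a membrane glycoprotein of progenitors, changed by -1.90 ± 0.51 (adjusted p = 0.0414), and Sox4, a transcription factor, by 0.61 ± 0.17 (adjusted p = 0.0456). Prom1 and Sox4 were called in 1 of the 6 fits with 1 library left out, that without EGFP 1, where Prom1 changed by -1.19. Fabp7, a fatty acid binding protein of radial glia, had 2.64, 2.2 and 0.976 CPM in mCherry 1 to 3, against 52.7, 2.92 and 3.69 CPM in EGFP 1 to 3; outside EGFP 1 it was low throughout, and its change was not called (-3.36 ± 1.17, adjusted p = 0.0856; -0.76 without EGFP 1).

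Genes of the dividing cell were high in 1 library, EGFP 1, and gave no call between the times. All 34 cell cycle genes of the list were tested, and 0 were called by edgeR, with a median log2 fold change of -1.58. At an unadjusted p under 0.05 the count was 7 by edgeR, and DESeq2 called 6. Mki67, the antigen of proliferating cells, had 1.96, 6.47 and 9.76 CPM in mCherry 1 to 3, against 79.9, 6.69 and 4.15 CPM in EGFP 1 to 3 (-2.35 ± 1.15, adjusted p = 0.181). EGFP 1 lay far above the other 5 libraries. The summed level of the 34 genes was 521.9 to 653 CPM in the 3-day libraries, 4462 CPM in EGFP 1 and 833 to 858 CPM in EGFP 2 and EGFP 3. Without EGFP 1 the median change was 0.12, with 1 gene higher and 2 lower. In hM3Dq cultures, 3 of the 34 genes were higher at 3 days, 17 were lower and the median was -0.50. Of all genes in that contrast 30.2% were higher and 29.9% were lower.

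Some inhibitors of the cell cycle were called, in both directions. Of 18 genes tested, 3 were higher and 2 were lower, against 7.98% and 10.5% of all genes tested. Gadd45a, a stress-inducible inhibitor of the G2 phase, had 138, 149 and 94.1 CPM in mCherry 1 to 3, against 32.9, 39.4 and 36.5 CPM in EGFP 1 to 3 (a 3.48-fold higher level, adjusted p = 0.00407). Ccng2, a cyclin of quiescent cells, was at 97.6 ± 7.44 CPM at 3 days and 48 ± 7.64 CPM at 90 min (1.01 ± 0.14, adjusted p = 0.00764). Cdkn1a, which encodes the inhibitor p21, went the other way, with 75.1, 80 and 58.8 CPM in mCherry 1 to 3, against 472, 272 and 242 CPM in EGFP 1 to 3 (-2.21 ± 0.28, adjusted p = 0.00622). All 3 were called in each of the 6 fits with 1 library left out, and in hM3Dq cultures they changed by 2.37 (Gadd45a), 1.18 (Ccng2) and -2.34 (Cdkn1a).

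**Figure D3:**
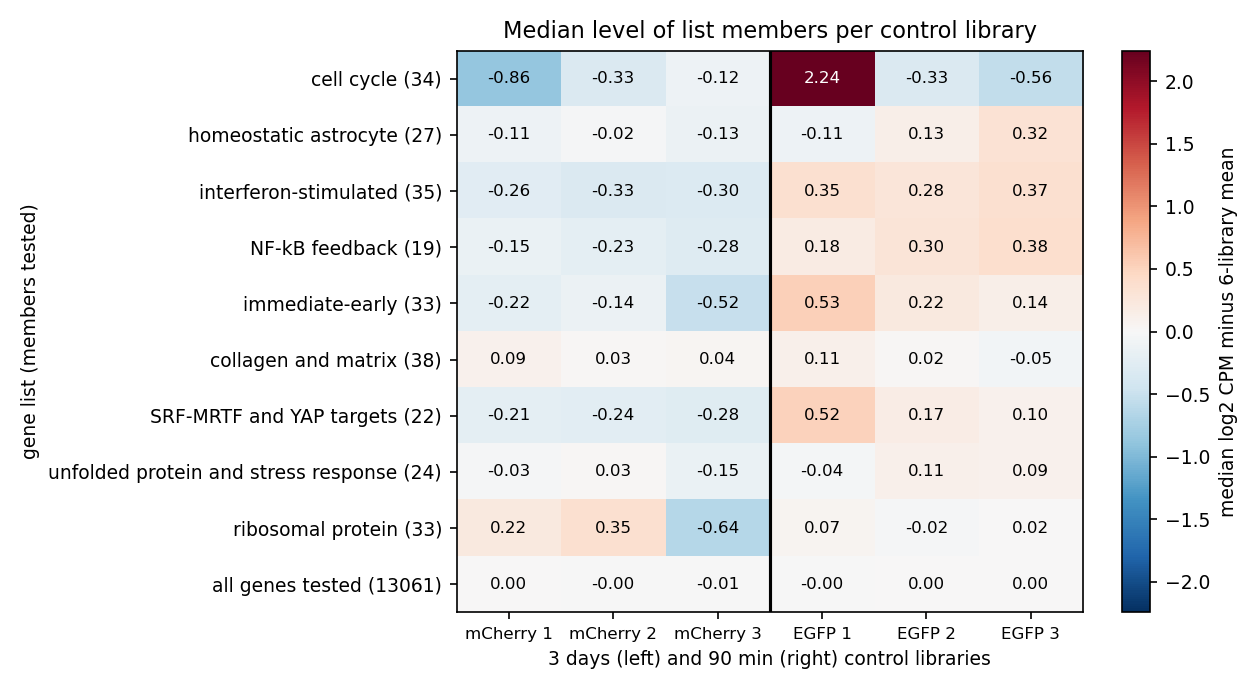
Median over the tested members of a list of log2(CPM + 0.5) minus the member's mean over the 6 control libraries, by list (rows, number of members) and library (columns, 3-day libraries left). Interferon-stimulated genes lie low in all 3 mCherry libraries (-0.26 to -0.33) and high in all 3 EGFP libraries (0.28 to 0.37), whereas cell cycle genes are high in EGFP 1 (2.24) and ribosomal protein genes low in mCherry 3 (-0.64).

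Interferon-stimulated genes were lower at 3 days. Of 36 genes, 35 were in the tables and all 35 were tested: 19 were lower, 1 was higher and 15 were not called, with a median log2 fold change of -0.64. Over all genes tested 10.5% were lower. The groups did not overlap for 28 of the 35, against 47.1% of all genes tested. The counts were 19 and 1 without EGFP 1, 20 and 0 without mCherry 3, and 28 and 1 without both. In hM3Dq cultures 25 were lower and 1 was higher, with a median of -0.67. The share of all genes that were lower was 26.3% without both and 29.9% in hM3Dq cultures. Irf7, the transcription factor that amplifies type I interferon production, had 39, 40.5 and 29.9 CPM in mCherry 1 to 3, against 181, 150.5 and 154 CPM in EGFP 1 to 3 (-2.16 ± 0.16, adjusted p = 0.0019). Rtp4, a chaperone induced by interferon, had 70.4, 66.9 and 61 CPM in mCherry 1 to 3, against 144, 132 and 140.0 CPM in EGFP 1 to 3 (-1.08 ± 0.11, adjusted p = 0.00392). Trim30a, a ubiquitin ligase that restrains innate signalling, had 27.4, 25.5 and 34.6 CPM in mCherry 1 to 3, against 95.4, 72 and 79.4 CPM in EGFP 1 to 3 (-1.51 ± 0.16, adjusted p = 0.00407). The libraries of each time lay close together for these 3 genes and the times did not overlap, and all were called in each of the 6 fits with 1 library left out. The other 9 90-min libraries ranged from 110.5 to 570.2 CPM for Irf7, above every 3-day control library.

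Not all members followed. Ifit1 and Rsad2, antiviral effectors chosen after their values were seen, were not lower. Ifit1 had 447, 472 and 647 CPM in mCherry 1 to 3, against 614, 489 and 566 CPM in EGFP 1 to 3 (-0.10 ± 0.18, adjusted p = 0.688), and its groups overlapped. Rsad2 had 46.9, 48 and 60.2 CPM in mCherry 1 to 3, against 23.8, 33.8 and 37.2 CPM in EGFP 1 to 3, the 3-day libraries being higher (0.70 ± 0.19, adjusted p = 0.0433), and it was called in 1 of the 6 fits with 1 library left out, that without EGFP 1. Ifit3, an antiviral effector of the same family as Ifit1, had 388, 379 and 371 CPM in mCherry 1 to 3, against 716, 716 and 810.0 CPM in EGFP 1 to 3 (-0.99 ± 0.12, adjusted p = 0.0059); reads of Ifit3 may be shared with its near copy Ifit3b. Oas1a, an enzyme that senses double-stranded RNA, had 19.6, 19.1 and 15.1 CPM in mCherry 1 to 3, against 93.1, 56.9 and 56.1 CPM in EGFP 1 to 3 (-1.95 ± 0.24, adjusted p = 0.00587).

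Interferon-activated factors bind a repeated GAAA element, and the promoter stretches that hold it are shown for 3 genes that were lower (Ifit3, Oas1a, Trim30a), for 1 that was not called (Ifit1) and for 1 that was higher (Rsad2). Sequences are RefSeq's on GRCm38.p6, written 5′ to 3′ on the gene's strand, upstream of the transcript start, with matches to the motif (GAAA, any 2 bases, GAAA, on either strand) in capitals. The 2 matches of Oas1a overlap. The stretches lie at chr19:34583328-34583461 (+ strand) for Ifit3, chr5:120907526-120907590 (- strand) for Oas1a, chr7:104465194-104465274 (- strand) for Trim30a, chr19:34640740-34640858 (+ strand) for Ifit1 and chr12:26456518-26456617 (- strand) for Rsad2.
Ifit3: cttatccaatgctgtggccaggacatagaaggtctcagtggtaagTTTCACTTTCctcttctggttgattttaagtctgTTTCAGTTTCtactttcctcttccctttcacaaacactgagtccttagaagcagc
Oas1a: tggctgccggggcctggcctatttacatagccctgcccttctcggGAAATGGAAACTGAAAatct
Trim30a: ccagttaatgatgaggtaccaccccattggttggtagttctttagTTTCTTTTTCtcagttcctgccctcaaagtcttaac
Ifit1: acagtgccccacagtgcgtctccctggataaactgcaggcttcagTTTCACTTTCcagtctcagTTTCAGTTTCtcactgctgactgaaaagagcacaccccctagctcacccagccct
Rsad2: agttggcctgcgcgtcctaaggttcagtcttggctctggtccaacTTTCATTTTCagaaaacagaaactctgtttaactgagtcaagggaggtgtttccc
Within 250 bases upstream of a start, 14 of the 26 interferon-stimulated genes with a promoter in the table held the motif (53.8%), against 936 of all 27025 genes (3.46%). It was found for 9 of 15 members that were lower, for 4 of 10 that were not called and for the 1 that was higher. Ifit1, with 2 matches, and Ifit3, also with 2, thus differed in their change though both hold the motif. A match describes the letters only.

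The genes of antigen presentation that were called were lower, in a share near that of all genes (18.5% called). Of 20 genes of MHC class I and the immunoproteasome, 4 were lower and 16 were not called (median -0.32), while 10.5% of all genes tested were lower. This compares with 4 higher and 13 lower without EGFP 1 and mCherry 3, where 25.6% of all genes were higher and 26.3% lower. Tap1, a peptide transporter of the endoplasmic reticulum, had 19.7, 20.7 and 15.1 CPM in mCherry 1 to 3, against 46.2, 38.1 and 35.9 CPM in EGFP 1 to 3 (-1.12 ± 0.18, adjusted p = 0.0103). H2-K1, a class I heavy chain whose reads may be shared with related genes, was at 383 ± 100.1 CPM at 3 days and 762 ± 46.5 CPM at 90 min (a level at 90 min 2 times that at 3 days, adjusted p = 0.0245; at most 0.0645 with 1 library left out, lost without EGFP 2, EGFP 3, mCherry 1 or mCherry 2). H2-Q6, another class I gene with close paralogs, changed by -1.39 ± 0.33 (adjusted p = 0.0309), and was called in 2 of those 6 fits, those without EGFP 1 or EGFP 3. Of 19 NF-kB feedback genes, 7 were lower, 12 were not called and the median was -0.43, while 10.5% of all genes tested were lower. Without EGFP 1 and mCherry 3, 14 NF-kB feedback genes were lower and 1 was higher, against 26.3% and 25.6% of all genes. Icam1, an adhesion molecule, had 0.528, 0.297 and 0.344 CPM in mCherry 1 to 3, against 5.11, 3.83 and 2.25 CPM in EGFP 1 to 3 (-3.24 ± 0.44, adjusted p = 0.00729). Relb, a subunit of the noncanonical NF-kB pathway, had 11.7, 10.7 and 18.1 CPM in mCherry 1 to 3, against 35.2, 53.6 and 50.3 CPM in EGFP 1 to 3 (-1.79 ± 0.25, adjusted p = 0.00734). Tnfaip3, the ubiquitin-editing inhibitor A20, was at 21.9 ± 3.45 CPM at 3 days and 44.7 ± 5.82 CPM at 90 min (-1.04 ± 0.16, adjusted p = 0.00972). Icam1, Relb and Tnfaip3 were called in all 6 fits with 1 library left out.

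Secreted immune factors did not move together. Of 31 chemokines and cytokines 16 were tested, with 3 higher and 1 lower, while 7.98% of all genes tested were higher and 10.5% lower. The counts were 6 and 5 without EGFP 1 and 3 and 0 without mCherry 3. Cx3cl1, the membrane-bound chemokine fractalkine, had 205, 208 and 208 CPM in mCherry 1 to 3, against 102, 110.3 and 97.6 CPM in EGFP 1 to 3 (0.99 ± 0.11, adjusted p = 0.00407). Cxcl14 changed by 2.04 ± 0.33 (adjusted p = 0.0108) and Ccl5, a chemokine of T cells, by 3.23 ± 0.59 (adjusted p = 0.0153; at most 0.0544 with 1 library left out, lost without mCherry 1 or mCherry 2). Of 22 complement genes 13 were tested, 1 was higher and 3 were lower; without EGFP 1, 6 were lower. C3, the central complement component, had 105, 97 and 105 CPM in mCherry 1 to 3, against 25, 578 and 556 CPM in EGFP 1 to 3. EGFP 1 lay under and EGFP 2 and EGFP 3 above all 3-day libraries, the change was -1.93 ± 0.90, adjusted p = 0.168, and without EGFP 1 it was -2.48 (adjusted p = 0.000201). Cd55, an inhibitor of complement, had 0.317, 0.653 and 0.287 CPM in mCherry 1 to 3, against 6.63, 2.97 and 3.34 CPM in EGFP 1 to 3 (-3.36 ± 0.50, adjusted p = 0.00897). Serping1, the C1 inhibitor, was at 5.02 ± 0.596 CPM at 3 days and 41.5 ± 32.6 CPM at 90 min (-3.06 ± 0.54, adjusted p = 0.0146; at most 0.0677 with 1 library left out, lost without mCherry 1 or mCherry 2). The change of Serping1 without EGFP 1 was -2.18. Cfb, complement factor B, changed by -1.87 ± 0.45 (adjusted p = 0.0309) and was called in 1 of those 6 fits, that without EGFP 1.

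Reactive astrocyte genes leaned lower. Of 37 genes 34 were tested, 2 were higher, 8 were lower and 24 were not called (median -0.49), with 5 lower without mCherry 3. Over all genes tested 7.98% were higher and 10.5% were lower. Without EGFP 1 and mCherry 3, 4 genes of the list were higher and 20 were lower, against 25.6% and 26.3% of all genes. Vim, the intermediate filament vimentin, had 3313, 3369 and 2646 CPM in mCherry 1 to 3, against 4985, 4745 and 5076 CPM in EGFP 1 to 3 (-0.68 ± 0.15, adjusted p = 0.0275); the groups did not overlap, but it lost its call without EGFP 2, EGFP 3, mCherry 1 or mCherry 2 (adjusted p at most 0.0816). B3gnt5, an enzyme of glycolipid synthesis, had 0.106, 0.119 and 0.172 CPM in mCherry 1 to 3, against 8.38, 2.34 and 2.13 CPM in EGFP 1 to 3 (-4.97 ± 0.75, adjusted p = 0.00911; -4.02 without EGFP 1). Fbln5, a protein of elastic fibres, went up, with 187, 195 and 219 CPM in mCherry 1 to 3, against 68.7, 77.2 and 78.6 CPM in EGFP 1 to 3 (1.41 ± 0.12, adjusted p = 0.00229). Fkbp5, a co-chaperone of the glucocorticoid receptor, did too, with 49.2, 57.1 and 54.6 CPM in mCherry 1 to 3, against 18.7, 9.09 and 9.97 CPM in EGFP 1 to 3 (2.08 ± 0.28, adjusted p = 0.00702).

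Fkbp5 also led the glucocorticoid-responsive list, of which 5 of 16 tested genes were higher and 2 were lower, with a median of 0.34. Over all genes tested 7.98% were higher and 10.5% were lower. The counts were 5 higher and 5 lower without EGFP 1, 8 and 6 without EGFP 1 and mCherry 3, and 7 and 7 in hM3Dq cultures, whose median was -0.47. The share of all genes called was 51.9% without EGFP 1 and mCherry 3 and 60.2% in hM3Dq cultures. Sgk1, a kinase induced by glucocorticoids and by serum, had 48.8, 70.1 and 82.1 CPM in mCherry 1 to 3, against 39, 34.7 and 32.4 CPM in EGFP 1 to 3 (0.91 ± 0.19, adjusted p = 0.0242; at most 0.0732 with 1 library left out, lost without EGFP 2, EGFP 3 or mCherry 2). Dusp1, a phosphatase of MAP kinases, was lower, with 6.29, 6.47 and 4.99 CPM in mCherry 1 to 3, against 55.6, 18.9 and 16.9 CPM in EGFP 1 to 3 (-2.37 ± 0.48, adjusted p = 0.0215), and was not called without any 1 of the 3-day libraries (at most 0.0759). Without EGFP 1 the change of Dusp1 was -1.60. Sgk1 and Dusp1 are both also immediate-early genes, so they are counted in both lists.

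**Figure D4:**
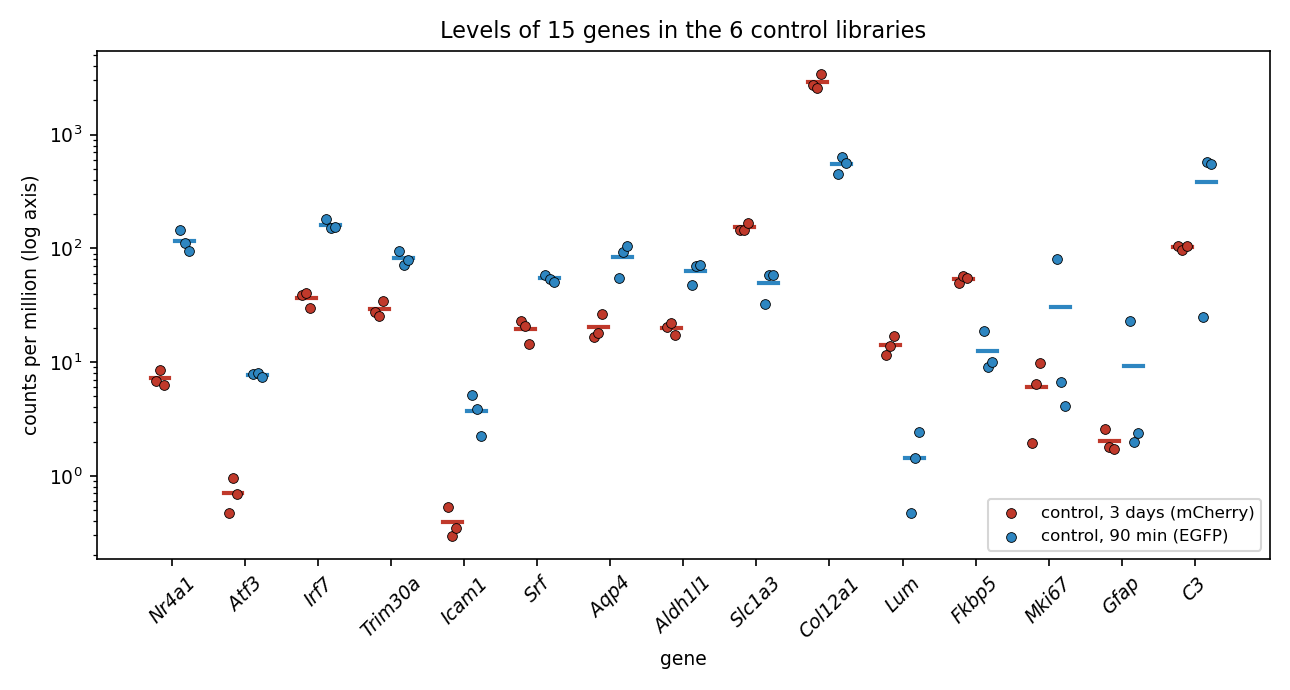
Levels in CPM (log axis) of 15 genes in the 3 control libraries at 3 days (left of each pair) and at 90 min (right), with a bar at each mean. Nr4a1, Atf3, Irf7, Trim30a, Icam1, Srf, Aqp4 and Aldh1l1 are lower and Slc1a3, Col12a1, Lum and Fkbp5 higher in all 3 mCherry libraries, while Mki67, Gfap and C3 are set apart by EGFP 1.

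Many immediate-early genes were lower at 3 days. Of 36 genes 33 were tested, 13 were lower, 2 were higher and 18 were not called (median -0.75), while 10.5% of all genes tested were lower and 7.98% higher. The counts were 13 lower and 5 higher without EGFP 1, 11 and 1 without mCherry 3, and 18 and 9 without both (median -0.39). Without both, 26.3% of all genes were lower and 25.6% higher. The list summed to 4421 to 4498 CPM in the 3-day libraries, to 5541 CPM in EGFP 1 and to 4157 and 4226 CPM in EGFP 2 and EGFP 3, so the sums overlapped. Nr4a1, an orphan nuclear receptor induced within an hour of stimulation, had 6.82, 8.54 and 6.31 CPM in mCherry 1 to 3, against 144, 111 and 95.7 CPM in EGFP 1 to 3; the level at 90 min was 16.3 times that at 3 days (-4.03 ± 0.22, adjusted p = 0.000903). Nr4a3, of the same family, had 0.793, 0.475 and 0.804 CPM in mCherry 1 to 3, against 12.9, 41.3 and 42.2 CPM in EGFP 1 to 3 (-5.53 ± 0.55, adjusted p = 0.00356). Atf3, a stress-induced transcription factor, had 0.476, 0.949 and 0.689 CPM in mCherry 1 to 3, against 7.86, 8 and 7.37 CPM in EGFP 1 to 3 (-3.46 ± 0.32, adjusted p = 0.00258). The times lay far apart for these 3 genes and all were called in each of the 6 fits with 1 library left out. Klf4, Fosl1 and Jund, chosen after their values were seen, changed by -2.40 ± 0.25 (adjusted p = 0.00392), -2.63 ± 0.32 (adjusted p = 0.00566) and -2.01 ± 0.34 (adjusted p = 0.0132). Fos, the archetype of the class, had 14.6, 16.1 and 13.4 CPM in mCherry 1 to 3, against 10, 14.9 and 15.3 CPM in EGFP 1 to 3; its groups overlapped and its change was not called (0.13 ± 0.20, adjusted p = 0.673). Egr2, a zinc-finger factor chosen after its values were seen, was higher at 3 days, with 4.49, 7.71 and 7 CPM in mCherry 1 to 3, against 2.37, 3.09 and 2.65 CPM in EGFP 1 to 3 (1.23 ± 0.29, adjusted p = 0.0294), and was called in 1 of the 6 fits with 1 library left out, that without EGFP 1.

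Some immediate-early genes changed by another amount in hM3Dq cultures. In hM3Dq cultures, whose 90-min libraries come from cells with the stimulated receptor, 31 of the 33 genes were lower at 3 days and 2 were higher (median -1.93). Of all genes in that contrast 29.9% were lower and 30.2% were higher. Of 13391 genes tested for a difference between both contrasts, 53 were called (0.396%), and 501 without EGFP 1 and mCherry 3. For Fos the difference, hM3Dq minus control, was -2.47 (adjusted p = 0.000117): Fos ranged from 10.2 to 11.2 CPM in hM3Dq cultures at 3 days and 52.7 to 56 CPM at 90 min. For Atf3 it was -2.59 (adjusted p = 0.00457), for Sgk1 -2.65 (adjusted p = 0.0001) and for Egr2 -3.92 (adjusted p = 5.5e-05). For Nr4a1 and Nr4a3 the test of the difference did not pass (-1.01, adjusted p = 0.0966; -1.56, adjusted p = 0.526).

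Targets of serum response factor (SRF) and YAP are switched on by serum and by tension on the cytoskeleton, and more of them were lower than higher. Of 24 genes 22 were tested, 8 were lower, 1 was higher and the median was -0.54, while 10.5% of all genes tested were lower and 7.98% higher. Without EGFP 1 and mCherry 3, 13 genes of the list were lower and 3 were higher, against 26.3% and 25.6% of all genes. Zyx, a protein of focal adhesions, had 38.1, 41.9 and 35.1 CPM in mCherry 1 to 3, against 97.5, 96.1 and 94.4 CPM in EGFP 1 to 3 (-1.33 ± 0.12, adjusted p = 0.00229). Cnn1, the smooth-muscle protein calponin, had 0.423, 0.534 and 0.402 CPM in mCherry 1 to 3, against 6.11, 12.1 and 13.4 CPM in EGFP 1 to 3 (-4.53 ± 0.40, adjusted p = 0.00236). Srf itself, chosen after its values were seen, had 22.9, 20.9 and 14.5 CPM in mCherry 1 to 3, against 58.4, 54.1 and 50.6 CPM in EGFP 1 to 3 (-1.49 ± 0.19, adjusted p = 0.0063). Mylk, the kinase of myosin light chain, was the exception, with 17.4, 16.1 and 19.9 CPM in mCherry 1 to 3, against 2.79, 4.17 and 3.8 CPM in EGFP 1 to 3 (2.30 ± 0.21, adjusted p = 0.00257). The times did not overlap for any of these 4 genes, and each was called in all 6 fits with 1 library left out. The Srf gene holds its own factor's motif, the CArG box, which was searched on both strands of 250 upstream bases and was found for 5 of 20 list members with a promoter in the table (25%), against 439 of all 27025 genes (1.62%). The Srf stretch is shown because Srf is itself a gene that was lower and holds 2 such boxes, in capitals (RefSeq, GRCm38.p6, chr17:46556170-46556289 (- strand)).
Srf: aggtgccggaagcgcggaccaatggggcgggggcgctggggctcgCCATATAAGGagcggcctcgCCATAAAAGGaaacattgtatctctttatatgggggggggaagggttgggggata

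Matrix genes changed in both directions. Of 39 collagen and matrix genes 38 were tested, 9 were higher, 9 were lower and the median was 0.06, while 7.98% of all genes tested were higher and 10.5% lower. They numbered 15 and 8 without EGFP 1 and 5 and 5 without mCherry 3. Col12a1, a collagen that decorates fibrils, had 2745, 2557 and 3420 CPM in mCherry 1 to 3, against 448, 631 and 566 CPM in EGFP 1 to 3, a 5.26-fold higher level (2.39 ± 0.19, adjusted p = 0.0019). Col8a1, a short-chain collagen, had 524, 493 and 630.0 CPM in mCherry 1 to 3, against 176, 224 and 225 CPM in EGFP 1 to 3 (1.39 ± 0.16, adjusted p = 0.00444). Loxl2, an enzyme that cross-links collagen, was lower, with 126, 121 and 126 CPM in mCherry 1 to 3, against 349.8, 255 and 244 CPM in EGFP 1 to 3 (-1.20 ± 0.16, adjusted p = 0.00726). Of 21 tested matrix proteases and inhibitors, 4 were higher and 4 were lower (3 and 2 without mCherry 3). Adamts1, a protease of proteoglycans, had 4.54, 4.04 and 4.59 CPM in mCherry 1 to 3, against 35.5, 28.1 and 22.4 CPM in EGFP 1 to 3 (-2.71 ± 0.21, adjusted p = 0.0019), and Adamts4, a related protease, was at 5.16 ± 0.364 CPM at 3 days and 16.5 ± 1.75 CPM at 90 min (-1.69 ± 0.17, adjusted p = 0.00352). Timp3, an inhibitor of metalloproteases, was at 2413 ± 422 CPM at 3 days and 1376 ± 140.3 CPM at 90 min (0.80 ± 0.17, adjusted p = 0.0225; at most 0.0781 with 1 library left out, lost without EGFP 2, EGFP 3, mCherry 1 or mCherry 2). The other genes named here were called in all 6 of those fits.

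TGF-beta and BMP targets were likewise divided, with 4 of 21 tested genes higher and 3 lower (7 and 3 without EGFP 1). Over all genes tested 7.98% were higher and 10.5% were lower. Ltbp2, a protein that binds fibrillin, had 85.2, 76.7 and 71.2 CPM in mCherry 1 to 3, against 10.3, 23.7 and 20.4 CPM in EGFP 1 to 3 (2.09 ± 0.29, adjusted p = 0.00764). Hey1, a target of Notch and BMP signals, had 4.39, 4.33 and 2.93 CPM in mCherry 1 to 3, against 24.7, 14.9 and 19.5 CPM in EGFP 1 to 3 (-2.35 ± 0.27, adjusted p = 0.00465), and Fst, the activin antagonist follistatin, was at 50.8 ± 7.6 CPM at 3 days and 88 ± 2.36 CPM at 90 min (-0.81 ± 0.13, adjusted p = 0.0103).

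Metabolic and stress genes changed in part. Of 24 genes of the unfolded protein and stress response, 3 were higher and 8 were lower, against 7.98% and 10.5% of all genes tested. Those named by rule act downstream of amino acid shortage and ATF4: Sesn2, a regulator of the nutrient sensor mTORC1, had 40.7, 38.3 and 33.5 CPM in mCherry 1 to 3, against 97, 86.8 and 77 CPM in EGFP 1 to 3 (-1.22 ± 0.14, adjusted p = 0.00468), Chac1, an enzyme that degrades glutathione, was at 4.16 ± 1.14 CPM at 3 days and 15.9 ± 3.02 CPM at 90 min (-1.94 ± 0.26, adjusted p = 0.00699), and Ddit3, which encodes CHOP, was at 27.9 ± 7.59 CPM at 3 days and 65.6 ± 6.39 CPM at 90 min (-1.24 ± 0.22, adjusted p = 0.0148). Each was called in all 6 fits with 1 library left out. Hsp90b1, a chaperone of the endoplasmic reticulum chosen after its values were seen, was higher, at 1527 ± 193 CPM at 3 days and 916 ± 65.2 CPM at 90 min (0.73 ± 0.14, adjusted p = 0.0186; called in 2 of those 6 fits, those without EGFP 1 or mCherry 3).

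Genes of cholesterol, fatty acids and glycolysis were called in shares near or under the 18.5% of all genes. Of 23 tested genes of cholesterol synthesis and uptake, 4 were lower and 19 were not called (median -0.29). Mvd, an enzyme of the mevalonate pathway, was at 27.4 ± 5.93 CPM at 3 days and 47 ± 9.81 CPM at 90 min, changed by -0.78 ± 0.22 (adjusted p = 0.049) and lost its call without any 1 library, mCherry or EGFP. Of 19 genes of cholesterol efflux and fatty acids 2 were lower and 17 were not called. Of 24 glycolysis and hypoxia genes, 4 were higher and 1 was lower. By direction, 7.98% of all genes tested were higher and 10.5% were lower. Pdk1, a kinase that turns pyruvate away from the mitochondrion, had 57.1, 57 and 76.6 CPM in mCherry 1 to 3, against 29.4, 29.5 and 32.3 CPM in EGFP 1 to 3 (1.05 ± 0.15, adjusted p = 0.00746). Vegfa, the vascular growth factor, was at 116 ± 13.2 CPM at 3 days and 74.9 ± 3.35 CPM at 90 min (0.62 ± 0.13, adjusted p = 0.0223) and Hk2, a hexokinase, at 20.6 ± 1.34 CPM at 3 days and 31.2 ± 2.48 CPM at 90 min (-0.60 ± 0.13, adjusted p = 0.0243); both lost their call without EGFP 2, EGFP 3, mCherry 1 or mCherry 2 (at most 0.0767 and 0.0867).

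Over all genes tested 18.5% were called, the share to set beside the oxidative stress, heat shock and clock lists here. Of 22 genes of oxidative stress and metallothioneins, 2 were higher and 4 were lower (2 and 2 without mCherry 3). Gclc, the enzyme that limits glutathione synthesis, had 92.6, 90 and 105 CPM in mCherry 1 to 3, against 297, 204 and 218 CPM in EGFP 1 to 3 (-1.33 ± 0.17, adjusted p = 0.00622) and was called in all 6 fits with 1 library left out. Hmox1, heme oxygenase, was at 89.6 ± 9.54 CPM at 3 days and 161 ± 36.8 CPM at 90 min (-0.85 ± 0.19, adjusted p = 0.0262), and Tfrc, the transferrin receptor, at 83.8 ± 27.1 CPM at 3 days and 40.7 ± 3.49 CPM at 90 min (1.03 ± 0.22, adjusted p = 0.023); Hmox1 lost its call without any library but EGFP 1, and Tfrc without EGFP 2, EGFP 3 or mCherry 2. Of 16 heat shock genes, 1 was higher and 3 were lower (2 and 1 without mCherry 3). Those were the small heat shock proteins Hspb8 (-0.65 ± 0.12, adjusted p = 0.0157), Cryab (-1.46 ± 0.34, adjusted p = 0.0298) and Hspb1 (-2.41 ± 0.64, adjusted p = 0.0419), which lost their call without EGFP 2, EGFP 3 or mCherry 1 (Hspb8), without any 1 of the mCherry libraries (Cryab), and without EGFP 2 or any 1 of the mCherry libraries (Hspb1, which changed by -1.35 without EGFP 1). Of 20 tested clock genes, 2 were higher and 1 was lower (1 and 4 without EGFP 1, 0 and 0 without mCherry 3): Per3 (0.90 ± 0.19, adjusted p = 0.0246), Tef (0.46 ± 0.12, adjusted p = 0.0425) and Nfil3 (-1.33 ± 0.36, adjusted p = 0.0435), which lost their call without EGFP 2, mCherry 1 or mCherry 3 (Per3), without any 1 of the 6 libraries (Tef), and without any library but EGFP 1 (Nfil3).

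**Figure D5:**
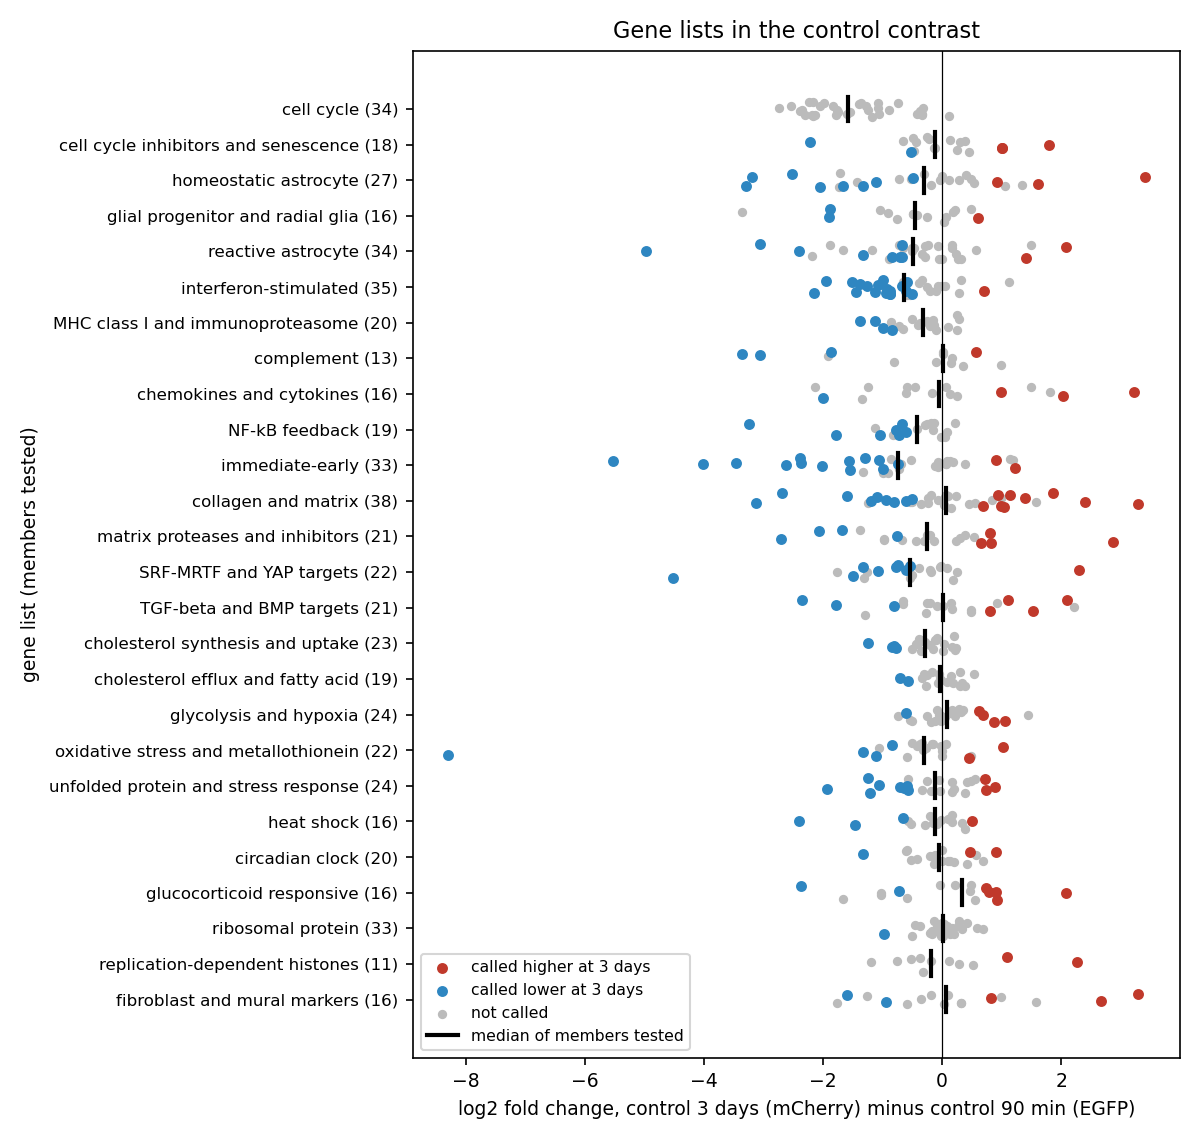
Log2 fold change of 3 days minus 90 min (x) for the tested members of each list with at least 10 of them (rows), each point 1 gene, with a black bar at the median. Interferon-stimulated genes lie almost wholly at the left (median -0.64), matrix genes on both sides (median 0.06), and cell cycle genes lie far left (median -1.58) with none called.

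The genes with the highest folds were, apart from Erg, in none of the lists. Where the mean level was at least 1 on the log2 CPM scale, Sim1, a transcription factor of hypothalamic neurons, had 5.81, 5.76 and 7.23 CPM in mCherry 1 to 3, against 0, 0.114 and 0.288 CPM in EGFP 1 to 3 (5.53 ± 0.69, adjusted p = 0.00612; 4.91 without EGFP 1 and 6.71 without EGFP 3). Itm2a, a membrane protein, had 3.33, 4.09 and 4.36 CPM in mCherry 1 to 3, against 0.0947, 0.114 and 0.346 CPM in EGFP 1 to 3 (4.38 ± 0.48, adjusted p = 0.00419; 5.14 without EGFP 3). Erg, a transcription factor of endothelium and chondrocytes, had 6.82, 6.11 and 4.99 CPM in mCherry 1 to 3, against 0.473, 0.286 and 0.403 CPM in EGFP 1 to 3 (3.91 ± 0.33, adjusted p = 0.00229), although the 4 defining endothelial markers were under 1 CPM in all 6 libraries. Of the longer endothelial list, 8 of 16 genes were tested, with Erg higher and 3 lower. Over all genes tested 7.98% were higher and 10.5% were lower. The endothelial counts were 3 higher and 3 lower without EGFP 1, and 1 and 2 without mCherry 3. Among the 3 lower genes were Slco1a4, an organic anion transporter (-1.85 ± 0.18, adjusted p = 0.00277), and Vwf, von Willebrand factor (-1.55 ± 0.38, adjusted p = 0.033; lost without EGFP 2, EGFP 3, mCherry 1 or mCherry 2). Mgp, an inhibitor of calcification, had 168, 196 and 94.2 CPM in mCherry 1 to 3, against 22, 4.69 and 5.64 CPM in EGFP 1 to 3 (3.80 ± 0.64, adjusted p = 0.0131; 4.88 without EGFP 1; lost without mCherry 1 or mCherry 2, adjusted p at most 0.0548). Gprin3 (3.63 ± 0.48, adjusted p = 0.00692), Fgf14, an intracellular partner of sodium channels (3.56 ± 0.39, adjusted p = 0.00419), Has2, which makes hyaluronan (3.41 ± 0.45, adjusted p = 0.00653), and Smoc2, a matricellular protein (3.40 ± 0.55, adjusted p = 0.0109; 4.43 without EGFP 1), completed the 8. Except Mgp, all 8 were called in each of the 6 fits with 1 library left out.

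At the other end, 4 genes were listed at 0 in every 3-day library. Duxf3 was at 8.43 to 14.5 CPM in EGFP 1 to 3, at least 68.8-fold above the level of 3 counts per library that a 0 allows at 3 days. LOC100504180 was at least 44.4-fold lower at 3 days, Srsx at least 24.1-fold and Flg, which encodes filaggrin of the skin barrier, at least 22.5-fold. They were among 7 identifiers at 0 in all 6 3-day libraries, hM3Dq included, with at least 10 counts in each of the 12 90-min libraries, and no identifier showed the reverse. The 3-day control libraries also held more identifiers at 0 in all, 7030 to 7159 against 5245 to 5474 at 90 min. Why the zeros differ between the experiments was not tested. The other 4 of the 8 lowest genes, Stmn2, Nkain4, Thbd and Pou3f4, had a fold whose size depended on EGFP 1. Without it the log2 fold changes were -4.71, -3.08, -3.46 and -4.45, all still called. Nkain4, a partner of the sodium pump, had 0.211, 0.297 and 0.0574 CPM in mCherry 1 to 3, against 74.9, 2 and 1.27 CPM in EGFP 1 to 3 (-7.08 ± 1.96, adjusted p = 0.0464). Thbd, thrombomodulin, had 0, 0.0593 and 0.115 CPM in mCherry 1 to 3, against 19.9, 0.572 and 0.806 CPM in EGFP 1 to 3 (-6.83 ± 1.86, adjusted p = 0.0444), and Pou3f4, a transcription factor, had 0, 0.119 and 0.0574 CPM in mCherry 1 to 3, against 17.5, 1.49 and 1.27 CPM in EGFP 1 to 3 (-6.75 ± 1.52, adjusted p = 0.0275). Nkain4, Thbd and Pou3f4 were called in 3 of the 6 fits with 1 library left out, those without a 90-min library. Without mCherry 3 the change of Thbd was -7.68, and without mCherry 2 that of Pou3f4 was -7.64.

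Further genes that no list held were chosen after their values were seen. Igfbp2, a binding protein of insulin-like growth factors, had 11, 10.1 and 3.96 CPM in mCherry 1 to 3, against 381, 223 and 193 CPM in EGFP 1 to 3 (-4.99 ± 0.47, adjusted p = 0.00277). Gas6, a ligand of the TAM receptors, had 14.8, 14.4 and 12.3 CPM in mCherry 1 to 3, against 359, 169.8 and 166 CPM in EGFP 1 to 3 (-4.08 ± 0.35, adjusted p = 0.00229). Dkk3, a secreted glycoprotein of astrocytes, had 0.423, 0.534 and 0.344 CPM in mCherry 1 to 3, against 73.1, 22.5 and 23.2 CPM in EGFP 1 to 3 (-6.51 ± 0.65, adjusted p = 0.00352; -5.71 without EGFP 1). In the other direction Htr1b, a serotonin receptor, had 151, 154 and 181 CPM in mCherry 1 to 3, against 20.4, 28.9 and 31.6 CPM in EGFP 1 to 3 (2.58 ± 0.19, adjusted p = 0.00173). The times lay apart for these 4 genes in all 18 libraries, each was called in all 6 fits with 1 library left out, and the hM3Dq contrast gave -4.68 for Igfbp2, -3.44 for Gas6, -5.90 for Dkk3 and 2.51 for Htr1b.

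Short transcripts were lower in mCherry 3. Relative to mCherry 1 and mCherry 2, its median level was -0.14 on the log2 scale in the shortest of 4 equal groups of genes (67 to 818 bases) and 0.21 in the longest (2562 to 123179 bases). Between times the medians of these groups were -0.07 and 0.02, and without mCherry 3 they were -0.01 and -0.03. The 33 ribosomal protein genes, whose transcripts are short, summed to 11030 CPM in mCherry 3, 18840 to 20420 CPM in mCherry 1 and mCherry 2, and 15940 to 16440 CPM at 90 min. One of them was called, lower: Rps18, at 6.65 ± 0.639 CPM at 3 days and 13 ± 1.5 CPM at 90 min (-0.98 ± 0.18, adjusted p = 0.0161; lost without EGFP 2, EGFP 3, mCherry 1 or mCherry 2), which was named after its values were seen and whose reads may be shared with near copies. Without mCherry 3, 8 of the 33 were higher, and without EGFP 1 as well, 26 were higher and 2 were lower. In that last fit 25.6% of all genes were higher and 26.3% were lower. Of 27 replication-dependent histone genes measured, 11 were tested and 2 were higher, in libraries selected for poly(A) RNA. With all 6 control libraries 7.98% of all genes tested were higher. The histone count was 4 without EGFP 1, 1 without mCherry 3 and 6 without both. In hM3Dq cultures 8 of the 11 were higher, against 30.2% of all genes in that contrast.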

How the data were processed

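Per the labels' protocols, poly-A libraries were made from RNA of transfected cultured mouse astrocytes. Per the submitters' processing notes, fastp 0.23.4, Salmon 1.8.0 and mm39 were used. The authors deposited 1 table of estimated counts per gene for each experiment. Both tables were joined on the identifier (99.55% with a symbol, 0.0344% of counts without one), and estimated counts were rounded to whole numbers. Here edgeR 4.0.16 (R 4.3.3, filterByExpr, TMM, robust quasi-likelihood test, Benjamini-Hochberg over all genes tested) was fitted to the 6 control libraries, to the 6 hM3Dq libraries, and to these 12 together for the difference of contrasts. DESeq2 1.42.0 and limma 3.58.1 (voom) were alternatives, with other scalings, other low-count filters, libraries left out and the replicate number as a block. The procedure was tested on simulated data. Library totals, 16.6 to 21.5 M, cover counting error only.

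The members and gene lists were chosen with earlier results of these data known. Named are 13 set genes, the 8 top and 8 bottom called genes by log2 fold change (groups apart, mean level of 1 or more on the log2 CPM scale), and, for a list in which 3 or more members were called, its 3 called members of lowest p; some genes that this rule names are not reported here. Other named genes are said to have been chosen after their values were seen. Promoter sequences came from RefSeq (GRCm38.p6), a different build from that of the counts, so no coordinates were joined. The count tables name no mitochondrial-genome identifier.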

Additional observations from a re-analysis of the deposited data

Results flagged for a closer look

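In 6 named genes the contrast of 3 days minus 90 min differed between hM3Dq and control cultures, by the edgeR quasi-likelihood test of the difference itself over all 13391 genes. The difference, hM3Dq minus control on the log2 scale, was -3.92 for Egr2 (adjusted p = 5.5e-05), -2.79 for Fosl1 (adjusted p = 0.00111), -2.65 for Sgk1 (adjusted p = 0.0001), -2.59 for Atf3 (adjusted p = 0.00457), -2.47 for Fos (adjusted p = 0.000117) and -1.40 for Adamts1 (adjusted p = 0.0368). All 6 are more negative in hM3Dq cultures. The log2 fold change of Egr2 was -2.68 in hM3Dq cultures and 1.23 in control cultures, and that of Sgk1 was -1.74 in hM3Dq cultures and 0.91 in control cultures. Adamts1, Atf3 and Fosl1 were lower in both.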

How the results depend on the processing

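The count of 2410 called genes lay between 2047 and 3349 under other scalings, tests, low-count filters and the replicate block. It was 5273 in the fit of 12 libraries, 5402 in that of all 18 and 6833 without EGFP 1 and mCherry 3, and 626 to 2869 with 1 library left out. Of the 585 list genes tested, 177 were called, against 288 in the fit of 12 libraries, 400 without EGFP 1 and mCherry 3, and 73 to 233 with 1 library left out. The difference between contrasts was called for 53 genes, against 501 without EGFP 1 and mCherry 3, an alternative chosen after seeing the data. The replicate numbers did not pair the libraries (same-number correlations of -0.077, -0.070 and 0.061 in control cultures). With the replicate block 2047 control genes, 7048 hM3Dq genes and 36 differences were called.

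Genes that were not called changed sign in some fits. Without EGFP 1 and mCherry 3 the log2 fold change was 0.02 for Gfap and -0.20 for Sox9. Slc1a2 was at 0.17 with limma-voom, at 0.10 with the replicate block and between -0.64 and 0.18 with 1 library left out. With 1 library left out Sox9 lay between -0.24 (without EGFP 1) and 0.34, Mki67 between -2.86 and 0.14 (without EGFP 1), Fos between -0.04 (without EGFP 1) and 0.23, and Tmem119 between -0.03 (without EGFP 3) and 1.24. The cause was not tested. Without the low-count filter the median of all genes was -0.17, against -0.02. With 3 libraries a group, each fit that leaves 1 out rests on 2 libraries in that group.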
